A study of Mus musculus with 30 samples.

Results

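The genes described here are 50 genes of mitosis and cell division, listed by name and sorted by role into 7 subgroups: mitotic entry (13 genes), spindle checkpoint and anaphase (8), kinetochore (6), the chromosomal passenger complex (4), kinesins and spindle proteins (9), chromosome structure (7) and cytokinesis (3). A member was any listed gene whose symbol the array annotation gives to a probe. Of the 50 genes, 48 had at least 1 named probe, 97 probes in all. A probe was kept where its detection p-value was under 0.05 on at least 3 arrays, and 40 members kept a probe and were tested, out of 11937 genes tested on the whole array. Bub1, Ccnb2, Cenpe, Cks1b, Kif20a, Nek2, Nuf2 and Racgap1 had probes that were detected on 0 to 2 of the 30 arrays, so they were not tested. Ccnb1, cyclin B1, and Mki67, which encodes the proliferation antigen Ki-67, had no probe under these names in the annotation used here.

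The samples were F4/80+ macrophages sorted from bone marrow or spleen of C57BL/6 mice, profiled on 30 Illumina bead arrays. Every mouse carried the Eµ-TCL1 transgene (TCL1+/wt), which drives the human TCL1 oncogene in B cells and leads to a disease that models chronic lymphocytic leukaemia, so no group lacked it. Mice were Mif-/- (KO), lacking macrophage migration inhibitory factor, or Mif+/+ (WT), and were leukaemic (l) or not leukaemic (nl) when the cells were sorted. The marrow (BM) groups were WT-nl-BM (3 arrays), KO-nl-BM (3), WT-l-BM (5) and KO-l-BM (6), and the spleen (SP) groups were WT-nl-SP (3), KO-nl-SP (3, numbered 4 to 6), WT-l-SP (3) and KO-l-SP (4). By the labels, leukaemic mice were aged 2 to 5 months and the others 10 to 15 months, so that age and leukaemia cannot be told apart. Whether a marrow and a spleen array came from 1 mouse is not stated, so p-values reflect array-to-array spread, part of which may be technical.

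Mitosis genes encode the machinery that condenses, aligns and separates chromosomes and then divides the cell. Their transcripts are made mainly late in the cell cycle and are low in resting cells, so in a sorted population they are commonly read as a sign of dividing cells. Most tissue macrophages divide rarely, whereas red cell and granulocyte precursors, which can attach to or be carried along with marrow macrophages, divide actively. In bulk RNA, fewer cells of a dividing type and less RNA per cell cannot be told apart. In many of these genes the promoter holds a cell-cycle genes homology region (CHR), bound by the MuvB core of the DREAM and B-Myb–FoxM1 complexes, and CCAAT boxes, bound by NF-Y.

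Promoters are shown for the member with the smallest p-value for leukaemia in spleen in each of 4 subgroups. The sequences are RefSeq windows of GRCm38.p6, 250 bases before to 50 bases after the annotated start, 5′ to 3′ on the gene's strand. Capitals mark the CCAAT box and the CHR, searched as TTTGAA and as a form with C in place of the last T, on either strand.
Cenpa (chr5:30666636-30666935, plus strand): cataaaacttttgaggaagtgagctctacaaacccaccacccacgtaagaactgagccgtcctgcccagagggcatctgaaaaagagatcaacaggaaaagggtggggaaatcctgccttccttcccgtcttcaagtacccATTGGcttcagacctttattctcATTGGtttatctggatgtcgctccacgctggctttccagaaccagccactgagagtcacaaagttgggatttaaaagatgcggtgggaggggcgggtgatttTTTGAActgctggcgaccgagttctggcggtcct
Kif2c (chr4:117178723-117179022, minus strand): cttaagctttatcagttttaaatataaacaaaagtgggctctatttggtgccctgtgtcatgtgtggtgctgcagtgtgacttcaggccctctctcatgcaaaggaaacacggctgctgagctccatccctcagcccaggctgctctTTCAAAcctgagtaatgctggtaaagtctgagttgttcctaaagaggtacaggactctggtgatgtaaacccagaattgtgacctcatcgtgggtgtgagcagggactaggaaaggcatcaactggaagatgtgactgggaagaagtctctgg
Cdca8 (chr4:124936868-124937167, minus strand): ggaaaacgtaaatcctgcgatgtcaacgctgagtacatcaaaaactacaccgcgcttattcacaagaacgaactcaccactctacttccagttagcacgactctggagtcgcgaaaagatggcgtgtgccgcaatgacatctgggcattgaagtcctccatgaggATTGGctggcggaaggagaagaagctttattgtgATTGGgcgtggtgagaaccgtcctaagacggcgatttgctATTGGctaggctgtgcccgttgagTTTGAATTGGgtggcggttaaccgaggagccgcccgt
Plk1 (chr7:122159185-122159484, plus strand): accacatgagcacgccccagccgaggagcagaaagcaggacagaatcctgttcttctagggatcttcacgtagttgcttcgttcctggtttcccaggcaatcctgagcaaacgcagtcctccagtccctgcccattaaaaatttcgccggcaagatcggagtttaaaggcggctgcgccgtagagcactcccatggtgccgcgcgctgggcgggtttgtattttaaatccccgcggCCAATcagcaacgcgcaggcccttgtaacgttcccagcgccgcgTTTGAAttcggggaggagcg
The windows of Cenpa, Cdca8 and Plk1 held both kinds of word. In Cdca8 the CHR word and a CCAAT box share bases, and the Kif2c window held a CHR word without a CCAAT box. A promoter window was found for 42 of the 50 members. A CHR word stood in 31 of the 42 (73.8%), against 19.4% of the 27025 promoters in the table. CCAAT stood in 32 (76.2%), against 37.9%, and at least 2 CCAAT boxes in 22 (52.4%), against 12.2%. Both kinds stood in 28 members (66.7%), against 7.7% of all promoters. Of the E2F words, TTTGGCGC or its variant TTTCCCGC, searched on both strands, stood in 2 members (4.8%), against 1.6%. These are matches of letters, not measured binding sites.

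Arrays were alike in yield, with 16492 to 18567 of the 45281 probes detected on each. The labels' genotypes were visible in Mif, with group means of 10.99 to 11.98 in the WT groups and of 4.27 to 4.64 in the KO groups (log2 intensity). Adgre1, which encodes F4/80, had group means of 8.62 to 9.98. All samples were F4/80+ sorts, so the Adgre1 levels do not test the sort. With the members left out, KO-l-SP 2, KO-nl-SP 6 and WT-l-SP 3 correlated best with a marrow array although they are labelled spleen. WT-nl-SP 1 correlated no higher than 0.919 with any array, where every other array reached at least 0.968 with its closest. Of the marrow arrays, KO-l-BM 1 and WT-l-BM 2 correlated best with KO-l-SP 2 and WT-l-SP 3. Some of the counts and medians that these spleen arrays moved are given with and without them.

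Levels are neqc-normalised log2 intensities, on which undetected probes lie near 4.2 and a difference of 1 is a doubling of the normalised value. That value includes an added offset of 16, so differences of dim probes understate the change in signal. Of the 40 tested members, 26 were detected on all 30 arrays and 9 on 20 to 29. Ccna2 (cyclin A2), Cks2 (a CDK-binding subunit), Ttk (a checkpoint kinase), Ube2c (the ubiquitin-conjugating enzyme of the anaphase-promoting complex) and Smc2 (a condensin core subunit) were detected on fewer than 20 arrays, and their differences were small wherever the brighter members' were large. For the WT tissue difference below, the median was -2.75 over the members detected on all arrays, -1.0 over those on 20 to 29 and -0.29 over the 5 dim ones.

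**Figure D1:**
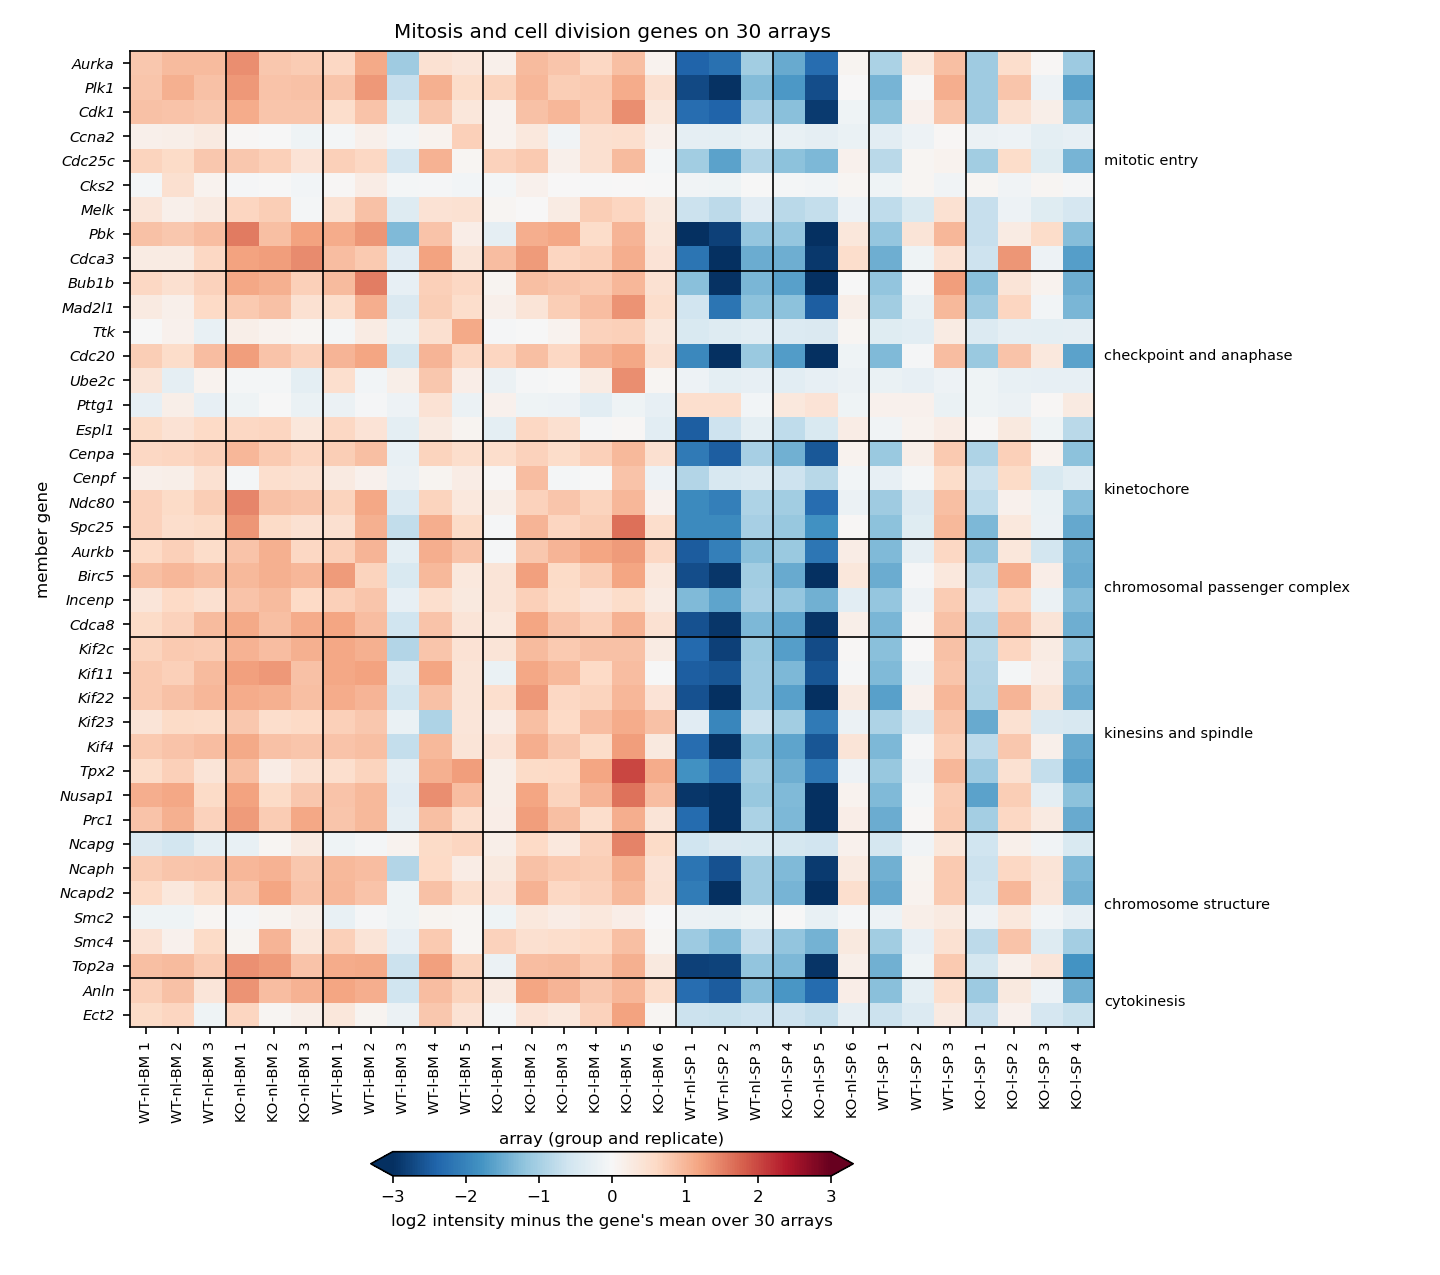
Each row is 1 of the 40 tested members, grouped by role, and each column 1 of the 30 arrays, grouped by genotype, leukaemia and tissue; the colour is the log2 intensity minus the gene's mean over the 30 arrays, and differences past 3 take the end colour. Most members were high on the marrow arrays and low on most spleen arrays, with KO-nl-SP 6, WT-l-SP 3 and KO-l-SP 2 the highest of their groups; Smc2, Cks2 and Pttg1 varied least.

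In mice without leukaemia, mitosis genes were lower in spleen macrophages than in marrow macrophages. Over both genotypes, 33 of the 40 tested members were called lower in spleen (limma, Benjamini-Hochberg adjusted p under 0.05) and 0 higher, where 4.73% of all genes were called lower. This comparison of both genotypes together was added after the comparisons within each genotype had been seen. The median member difference was -2.29 (all genes 0.01), the largest was that of Pbk at -2.94 ± 0.52 (SE), and 39 of 40 differences were below 0. Leaving out any single array left 32 or 33 members called lower.

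Of the mitotic entry genes, 7 of 9 tested fell. Plk1, the polo-like kinase that drives entry into mitosis and spindle assembly, read 9.86, 10.08 and 9.91 in WT-nl-BM and 10.33, 9.88 and 9.90 in KO-nl-BM. In spleen Plk1 read 6.31, 6.07 and 7.72 in WT-nl-SP and 7.30, 6.35 and 9.03 in KO-nl-SP. Every non-leukaemic marrow array was above every non-leukaemic spleen array, and the closest was KO-nl-SP 6; the difference was -2.86 ± 0.45 (SE, adjusted p = 0.00072). Aurka, the kinase of centrosomes and spindle poles, fell by 2.51 ± 0.40 (adjusted p = 0.00072). Cdk1, the kinase that triggers mitosis with its cyclins, fell by 2.55 ± 0.40 (adjusted p = 0.00072). A further kept probe of each of Cdk1, Kif11 and Prc1 lay near the floor and showed differences of at most 0.06 in size in WT mice, so the size of a member's change depends on its probe. Cks2 differed by -0.12 ± 0.07 (adjusted p = 0.36) and Ccna2 by -0.32 ± 0.11 (adjusted p = 0.074).

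Among the checkpoint and anaphase genes 4 of 7 fell. Cdc20, the activator of the anaphase-promoting complex, read 9.59 to 10.28 on the 6 non-leukaemic marrow arrays and 5.81 to 8.89 on the 6 spleen arrays, a difference of -2.70 ± 0.47 (adjusted p = 0.0010). Espl1, the protease separase that cuts cohesin, fell by 1.26 ± 0.27 (adjusted p = 0.0058). Pttg1, securin, the inhibitor of separase, was the member whose difference lay above 0, at 0.36 ± 0.13 (adjusted p = 0.084). Its levels were low everywhere, at 4.44, 4.86 and 4.44 in WT-nl-BM and 5.19, 5.18 and 4.59 in WT-nl-SP, and these groups overlapped.

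All 4 tested kinetochore genes fell, as did all 4 chromosomal passenger genes. Ndc80, the kinetochore subunit that grips microtubules, had the smallest adjusted p of all members. It read 7.69, 7.58 and 7.72 in WT-nl-BM and 8.47, 7.87 and 7.82 in KO-nl-BM. In spleen it read 5.07, 4.95 and 6.06 in WT-nl-SP and 5.95, 4.70 and 6.82 in KO-nl-SP, a difference of -2.27 ± 0.34 (adjusted p = 0.00061). The groups did not overlap in either genotype. Cenpa, the histone H3 variant of centromeres, fell by 2.31 ± 0.37 (adjusted p = 0.00076), and Cenpf, a large outer kinetochore protein, fell by 0.83 ± 0.21 (adjusted p = 0.019). Of the passenger complex, Birc5 (survivin) fell by 2.78 ± 0.47 (adjusted p = 0.00097) and Cdca8 (borealin) fell by 2.77 ± 0.46. Aurkb, its kinase, fell by 2.21 ± 0.37 and Incenp, its scaffold, fell by 1.78 ± 0.28 (adjusted p = 0.00072).

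All 8 tested kinesin and spindle genes fell, with differences from -2.88 (Kif22) to -1.62 (Kif23). Nusap1, a microtubule-bundling protein of the spindle, read 10.40, 10.47 and 9.90 in WT-nl-BM against 6.39, 6.05 and 8.17 in WT-nl-SP. In KO mice the Nusap1 values were 10.51, 9.88 and 10.13 in marrow against 8.0, 5.98 and 9.42 in spleen. The groups were apart in both genotypes, by the least in KO mice, where KO-nl-SP 6 came within reach of marrow; over both, Nusap1 fell by 2.88 ± 0.49 (adjusted p = 0.00097). Kif11, the motor that pushes spindle poles apart, fell by 2.65 ± 0.41 (adjusted p = 0.00071). Kif23, a motor of the central spindle needed for cytokinesis, had 4 kept probes, whose differences in WT mice were -1.47, -1.61, -0.12 and -0.20.

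Of the chromosome structure genes 4 of 6 fell, and both tested cytokinesis genes did. Top2a, the topoisomerase that untangles sister chromatids, read 9.81, 9.84 and 9.65 in WT-nl-BM against 6.10, 6.13 and 7.71 in WT-nl-SP. In KO mice Top2a read 10.27, 10.17 and 9.75 in marrow against 7.56, 5.95 and 9.08 in spleen, and over both genotypes it fell by 2.83 ± 0.47 (adjusted p = 0.00086). The condensin I subunits Ncaph and Ncapd2 fell, with differences of -2.51 ± 0.44 and -2.46 ± 0.48. The difference of their partner Ncapg was -0.22 ± 0.20 (adjusted p = 0.57), and its 3 kept probes all lay low, with means of 4.29 to 4.86. Anln (anillin, a scaffold of the contractile ring) fell by 2.54 ± 0.39, and Ect2, the exchange factor that switches on RhoA at the cleavage site, fell by 0.91 ± 0.21 (adjusted p = 0.0095). Ect2 was not well above background on any WT-nl-SP array. Its WT-nl-BM mean was 1.75-fold above the lowest level detected on those arrays. This is a point estimate that leaves out sampling error, and the WT difference was not called (adjusted p = 0.059).

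**Figure D2:**
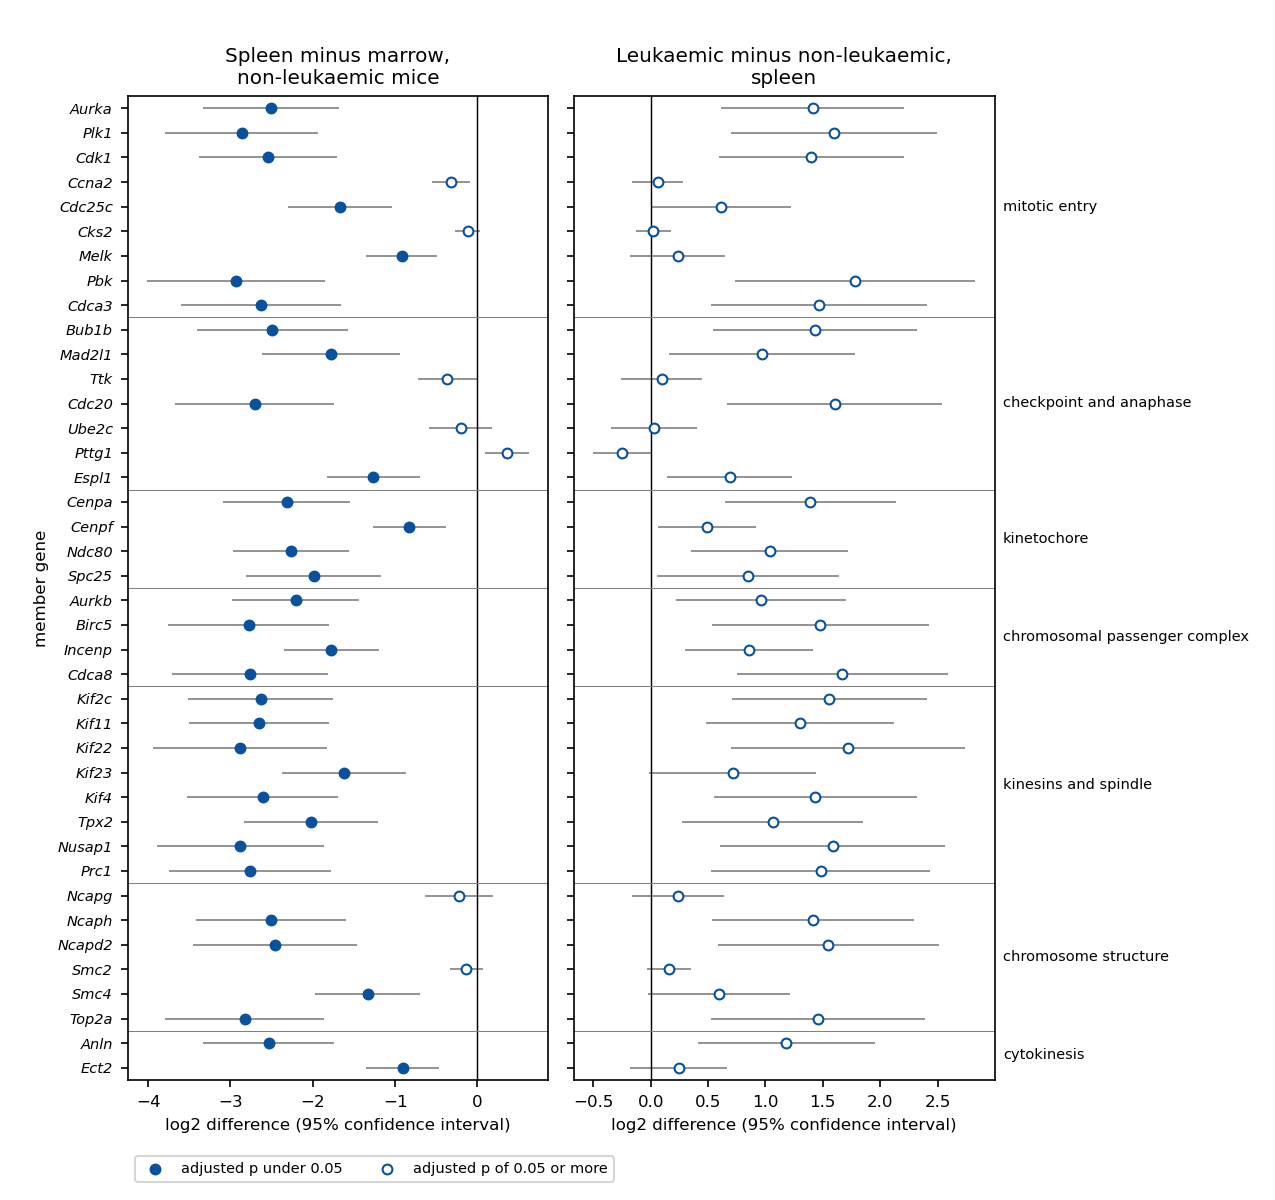
Points are log2 differences of the 40 tested members with 95% confidence intervals, ordered by role; filled points have an adjusted p under 0.05. On the left, spleen minus marrow in non-leukaemic mice over both genotypes, 33 members were called lower; on the right, leukaemic minus non-leukaemic spleen over both genotypes, 0 were called and 39 lay above 0.

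Taken within each genotype, the tissue difference had like sizes but unequal calls. In WT mice without leukaemia 27 of 40 members were called lower in spleen (2.06% of all genes), with a median of -2.49 (all genes 0.01). The groups did not overlap for 36 members, against 13.5% of all genes. Nusap1 (-3.39 ± 0.69, adjusted p = 0.013), Pbk, a mitotic MAP-kinase-like kinase (-3.33 ± 0.74, adjusted p = 0.017), and Plk1 (-3.25 ± 0.64, adjusted p = 0.011) differed most. The number of WT calls hung on single arrays: it was 0 without WT-nl-BM 1 and 0 without WT-nl-SP 1, 15 without WT-nl-BM 2 (0.653% of all genes) and 8 without WT-nl-BM 3 (0.419%), while the median stayed between -2.80 and -2.08. In KO mice without leukaemia 0 members were called (0% of all genes), with a median of -2.15 and a smallest adjusted p of 0.066. There 33 members had an unadjusted p under 0.05 and a lower level in spleen (6.15% of all genes), and 33 had groups that did not overlap (8.17%). Without KO-nl-SP 6, which correlated best with a marrow array, 28 KO members were called lower (1.2% of all genes). Dropping a spleen array for its likeness to marrow by itself widens a tissue difference, so this count is no further test. The KO median was -2.77 without KO-nl-SP 6 and -1.47 without KO-nl-SP 5, and 0 members were called without KO-nl-BM 1. In the authors' values 32 KO members were called lower (3.83%). On the slides that held both tissues the median difference was -2.50 and -2.83 for WT and -2.11 and -1.86 for KO.

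Markers of other cells moved with this tissue difference. Of 20 tested erythroid markers, all 20 were below 0 in spleen against marrow over both genotypes. Their median was -2.50, and 9 were called lower (4.73% of all genes). Their mean level was 7.49 to 9.46 on the non-leukaemic marrow arrays and 4.63 to 6.97 on the non-leukaemic spleen arrays other than KO-nl-SP 6, where it was 8.77. Of 16 neutrophil precursor markers, all 16 were below 0, with a median of -2.91 and 7 called lower (4.73% of all genes). Mpo, myeloperoxidase, showed the smallest p of these at -4.48 ± 0.81 (adjusted p = 0.0015). Of 17 macrophage markers 15 were above 0, with 3 called higher (3.03% of all genes). Among these 3 was Spic, the transcription factor of red pulp macrophages, at 3.46 ± 0.39 (adjusted p = 2.3e-05). Among erythroid markers, Rhd was not detected on any spleen array, and each neutrophil precursor marker was detected on at least 1 array of every group. Their part in the mitosis gene difference was not tested.

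**Figure D3:**
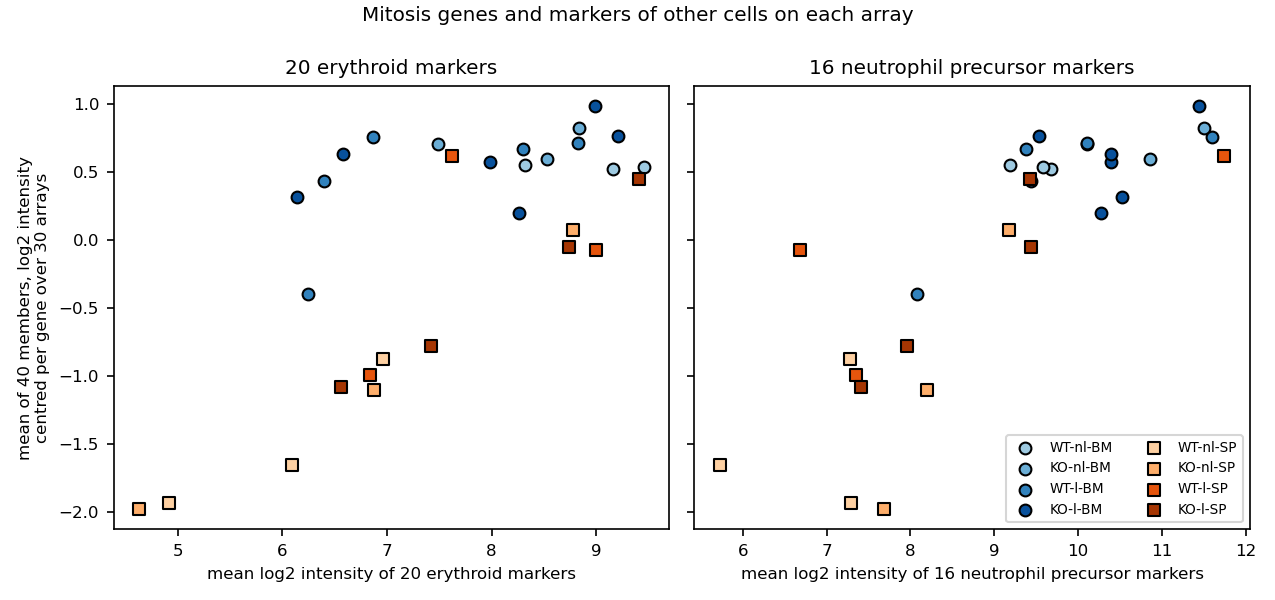
Each point is 1 array; the vertical axis is the mean of the 40 tested members (log2 intensity, centred per gene over the 30 arrays) and the horizontal axes are the mean log2 intensity of 20 erythroid markers (left) and of 16 neutrophil precursor markers (right); circles are marrow, squares spleen. The arrays with the lowest mitosis gene levels, KO-nl-SP 5 and WT-nl-SP 2, also had the lowest erythroid levels at 4.63 and 4.91, whereas WT-l-SP 2 had a high erythroid mean of 9.0 beside a low neutrophil precursor mean of 6.68.

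The mean of the 40 members, each centred on its own mean over the 30 arrays, summarises the order of the groups. It was 0.54 ± 0.01 (SD, n = 3) in WT-nl-BM, 0.71 ± 0.11 (n = 3) in KO-nl-BM, 0.44 ± 0.48 (n = 5) in WT-l-BM and 0.58 ± 0.29 (n = 6) in KO-l-BM. In spleen it was -1.49 ± 0.55 (n = 3) in WT-nl-SP, -1.0 ± 1.03 (n = 3) in KO-nl-SP, -0.15 ± 0.81 (n = 3) in WT-l-SP and -0.37 ± 0.70 (n = 4) in KO-l-SP. The 4 marrow groups differed by less than the spread within WT-l-BM. Among the 4 spleen groups, neighbours in this order overlapped.

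**Figure D4:**
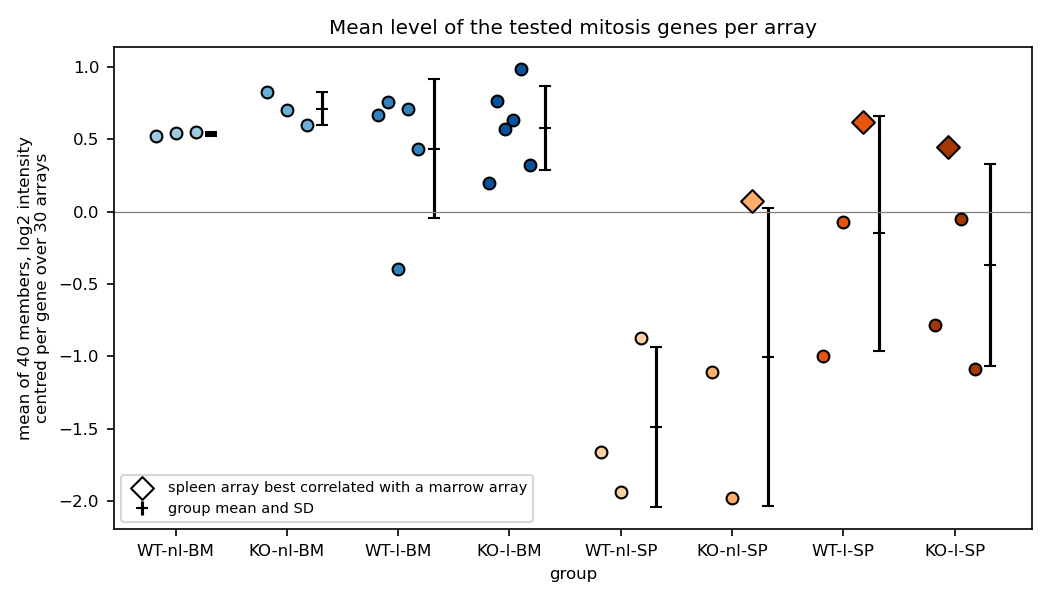
Each point is the mean of the 40 tested members on 1 array (log2 intensity, centred per gene over the 30 arrays), with the group mean and SD beside it; diamonds are the 3 spleen arrays that correlate best with a marrow array when the members are left out. Marrow arrays lay between -0.40 and 0.99, non-leukaemic spleen arrays between -1.98 and 0.07 and leukaemic spleen arrays between -1.09 and 0.62.

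In leukaemic mice the median difference between spleen and marrow was nearer 0, though the test of that change, given further on, called 0 members. In WT mice 0 of 40 members were called lower (0% of all genes), with a median of -0.62 and 5 members with an unadjusted p under 0.05 (4% of all genes), namely Ccna2, Melk, Ttk, Ube2c and Aurkb. That median ran from -1.10 without WT-l-SP 3, one of the spleen arrays nearest marrow, to -0.15 without WT-l-SP 1. In KO mice the median was -0.99, and 3 members were called lower in spleen, against 1.32% of all genes. Ncapg, the condensin subunit that hardly differed without leukaemia, had a lowest value of 5.04, a median of 5.45 and a highest of 6.35 on the 6 KO-l-BM arrays. In KO-l-SP Ncapg read 4.25, 5.01, 4.75 and 4.41, just under the marrow arrays and without overlap, a difference of -0.90 ± 0.22 (adjusted p = 0.036). Tpx2, the spindle protein that activates Aurora A, differed by -1.68 ± 0.44 (adjusted p = 0.045), with KO-l-SP 2 at 7.18 inside the marrow range of 6.90 to 8.72. Ccna2 differed by -0.46 ± 0.12 (adjusted p = 0.049) and was not well above background on any KO-l-SP array. Its KO-l-BM mean was 1.23-fold above the lowest level detected on those arrays, a point estimate that leaves out sampling error. A further 25 KO members had an unadjusted p under 0.05, which makes 28 in all (10.4% of all genes). The 3 calls were lost with the slide as a fixed block, with the replicate number as a block and in 3 other settings. With the slide as a random block 2 members were called lower (1.18% of all genes). Without KO-l-SP 2, which correlated best with a marrow array, 16 members were called (3.71% of all genes) and without KO-l-BM 1 5 were (1.91%). The count was 0 without any of KO-l-BM 4, 5 or 6 or KO-l-SP 1, 3 or 4. On the slides with both tissues the KO median was -1.17, -0.59 and -2.06. In the same KO comparison all 16 neutrophil precursor markers lay below 0, with a median of -2.11, 0 called and 10 lower at an unadjusted p under 0.05. Of 20 erythroid markers 13 lay above 0, with a median of 0.15 and 0 called. All 10 T and NK cell markers lay above 0, with a median of 1.74, 0 called and 8 higher at that threshold (10.2% of all genes). In WT mice the medians of these lists were -0.95, 0.50 and 0.78. Neutrophil precursor means were 9.53 to 11.45 in KO-l-BM and 7.41 to 9.44 in KO-l-SP, and 8.08 to 11.60 in WT-l-BM and 6.68 to 11.75 in WT-l-SP. The part of these markers in the leukaemic tissue difference was not tested.

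Leukaemia was compared with no leukaemia within spleen next. Over both genotypes 39 of 40 members lay above 0 and the median was 1.12 (all genes -0.01), but 0 members were called by limma (0.00838% of all genes higher), and the smallest adjusted p was 0.11. At an unadjusted p under 0.05, 29 of 40 members were higher in leukaemic spleen (7.05% of all genes) and 0 lower. Kinesin and spindle genes held 7 of the 29, mitotic entry genes 6, the kinetochore, checkpoint and passenger subgroups 4 each, chromosome structure genes 3 and cytokinesis genes 1.

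Cenpa had the smallest p. It read 9.02, 8.67 and 10.13 in WT-nl-SP and 9.70, 8.59 and 11.24 in KO-nl-SP. In leukaemic mice Cenpa read 10.04, 11.31 and 11.93 in WT-l-SP and 10.22, 11.86, 11.25 and 9.91 in KO-l-SP, a difference of 1.39 ± 0.36 (95% confidence interval 0.65 to 2.14, adjusted p = 0.11). Leukaemic and non-leukaemic arrays overlapped in both genotypes, in WT mice because WT-nl-SP 3 at 10.13 was above WT-l-SP 1 at 10.04. Kif2c, a kinesin that takes microtubules apart at centromeres, read 5.35, 4.88 and 6.58 in WT-nl-SP and 6.43, 7.70 and 8.56 in WT-l-SP. In KO mice Kif2c read 6.04, 5.00 and 7.72 without leukaemia and 6.87, 8.34, 7.94 and 6.51 with it, and the overall difference was 1.56 ± 0.41 (adjusted p = 0.11). Again the single arrays WT-nl-SP 3 and KO-nl-SP 6 reached into the leukaemic range. Cdca8 differed by 1.67 ± 0.44 (adjusted p = 0.11) and Pbk by 1.78 ± 0.51 (adjusted p = 0.12), the largest difference of a member. The difference of Kif22, a chromosome-arm kinesin, was 1.72 ± 0.50, that of Cdc20 1.60 ± 0.45 and that of the condensin subunit Ncapd2 1.55 ± 0.47. Birc5, Top2a, Cdk1 and Aurkb differed by 1.48 ± 0.46, 1.46 ± 0.45, 1.40 ± 0.39 and 0.96 ± 0.36 (adjusted p of 0.13, 0.13, 0.12 and 0.19). The lowest difference within each subgroup was that of Cks2 at 0.02 ± 0.07, Pttg1 at -0.25 ± 0.13, Cenpf at 0.49 ± 0.21, Incenp at 0.86 ± 0.27, Kif23, Smc2 at 0.16 ± 0.09 and Ect2 at 0.24 ± 0.21. Kif23 differed by 0.71, 0.56, -0.001 and 0.24 on its 4 kept probes.

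Whether these differences passed the threshold turned on single arrays and on the normalisation. Without WT-l-SP 1 22 members were called higher (1.55% of all genes), and without KO-nl-SP 6 21 were (1.26%), whereas 0 were called without the 3 spleen arrays that correlate best with marrow (median 1.05). With the slide as a fixed block 15 were called higher (1.71%). In the authors' values 32 were called higher and 1 lower, where 11% of all genes were called higher and 13.8% lower. Within WT spleen 0 members were called (0.0335% of all genes higher), the median was 1.64, 29 members had an unadjusted p under 0.05 and a higher level (7.8% of all genes), and 8 had groups that did not overlap (8.18%). On the slide that held 1 array of each WT spleen group the median difference was 1.84. Its leukaemic array was WT-l-SP 3, among the 3 spleen arrays that correlate best with marrow. Without WT-l-SP 3 the median over the WT spleen groups was 1.20. Within KO spleen the median was 0.70, 0 members were called (0% of all genes) and Cdc20 alone had an unadjusted p under 0.05 (1.79% of all genes); the median ran from 0.12 without KO-nl-SP 5 to 1.40 without KO-nl-SP 6. The KO difference minus the WT difference had a median of -0.79, with 0 members called, 0 with an unadjusted p under 0.05 (3.12% of all genes lower) and a smallest adjusted p of 0.74. It was -0.022 without the 3 arrays, so a genotype difference in the spleen's shift was not shown.

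The same markers again moved alongside. Over both genotypes in spleen, all 20 erythroid markers lay above 0 for leukaemia with a median of 1.72 and 0 called, and all 16 neutrophil precursor markers above 0 with a median of 0.86 and 0 called. Erythroid mean levels were 6.56 to 9.40 in KO-l-SP and 6.84 to 9.0 in WT-l-SP, against 4.63 to 8.77 in KO-nl-SP and 4.91 to 6.97 in WT-nl-SP. Of 17 macrophage markers 2 were above 0, with a median of -0.93 and 0 called. B cell markers, which would mark carried-over leukaemic cells, had a median of 0.005 over 11 tested genes, of which 6 lay above 0 and 0 were called. Their mean level was 4.66 to 5.39 in KO-l-SP and 4.55 to 4.78 in WT-l-SP, against 4.54 to 4.77 in KO-nl-SP and 4.69 to 5.11 in WT-nl-SP. Ms4a1 (CD20) and Vpreb3 were detected on no array of any of the 4 spleen groups, and the other 9 on at least 1 array of both leukaemic ones. Cd79b, a chain of the B cell receptor complex, differed by -1.88 ± 0.59 in WT spleen (adjusted p = 0.12), and the B cell kinase Blk by 1.29 ± 0.68 in KO spleen (adjusted p = 0.88). Their part in the result was not tested.

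Marrow gave small differences for leukaemia. Over both genotypes 0 of 40 members were called (0.00838% of all genes higher), the median was -0.11 (all genes -0.03), and 28 members lay below 0. Ncapg, at 0.63 ± 0.18 (95% confidence interval 0.27 to 0.99, adjusted p = 0.16), was the member with an unadjusted p under 0.05, where 6.9% of all genes were higher at that threshold. It read 4.42, 4.31 and 4.57 in WT-nl-BM and 4.73, 4.79, 4.96, 5.42 and 5.50 in WT-l-BM, without overlap. In KO mice Ncapg read 4.62, 4.92 and 5.13 without leukaemia and 5.04 to 6.35 with it, and KO-nl-BM 3 lay inside the leukaemic range. Top2a was at 9.65 to 10.27 on the 6 non-leukaemic marrow arrays and at 8.25 to 10.13 on the 11 leukaemic ones. WT-l-BM 3 was the lowest leukaemic marrow array for Top2a, Plk1, Aurkb and Anln, and its mean over the members was -0.40, the lowest of all marrow arrays. Its erythroid mean of 6.24 and its neutrophil precursor mean of 8.08 were the lowest of WT-l-BM. Other marrow arrays had like erythroid means beside higher member means: WT-l-BM 5 had 6.40 and 0.44, and KO-l-BM 6 had 6.14 and 0.32. The neutrophil precursor means of these arrays were also higher than that of WT-l-BM 3, at 9.44 and 10.52. Between WT-nl-BM and WT-l-BM the group erythroid mean went from 8.98 to 7.33 and the neutrophil precursor mean from 9.48 to 9.72. The part of these markers in marrow was not tested. The median half-width of the members' 95% confidence intervals was 0.72, and dim members had narrower ones. The median ran from -0.19 without WT-l-BM 2 to -0.047 without WT-l-BM 3, and within WT marrow it was -0.12 with all arrays and 0.098 without WT-l-BM 3.

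The leukaemia difference in spleen minus that in marrow had a median of 1.35 over the 40 members, with 35 above 0. Of the 40, 0 were called (0% of all genes), the smallest adjusted p was 0.25, and 25 members had an unadjusted p under 0.05 in the higher direction (7.77% of all genes). Aurka had the smallest p at 1.90 ± 0.52 and Pbk the largest difference at 2.29 ± 0.69 (adjusted p of 0.25 for both). In the authors' values 14 members were called higher (1.85% of all genes).

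Loss of Mif was compared in each tissue and state. In all 4 comparisons 0 of 40 members were called by limma and 0 had an unadjusted p under 0.05 in either direction. In leukaemic marrow, leukaemic spleen and then marrow and spleen without leukaemia, 1.44%, 2.14%, 2.85% and 4.03% of all genes were higher in KO at an unadjusted p under 0.05 and 1.46%, 3.14%, 2.81% and 6.19% lower. After adjustment 0.0168%, 0%, 0.0251% and 0.142% of all genes were called higher and 0.0251%, 0.0419%, 0.0503% and 0.126% lower. The median member difference, KO minus WT, was 0.15 in marrow and -0.18 in spleen of leukaemic mice, and 0.15 in marrow and 0.52 in spleen of mice without leukaemia. The median half-width of a member's 95% confidence interval was 0.86, 1.08, 1.16 and 1.16 in that order. Leaving out single arrays turned the sign of some of these medians. Espl1 in non-leukaemic spleen had a small p at 0.79 ± 0.39 (interval -0.005 to 1.59, adjusted p = 0.49). It read 4.55, 6.41 and 6.73 in WT-nl-SP and 6.27, 6.57 and 7.24 in KO-nl-SP, with WT-nl-SP 1 far below the rest and the groups otherwise overlapping. In leukaemic marrow Smc2 differed by 0.21 ± 0.10 and Ncapg by 0.42 ± 0.21. The leukaemic marrow median was -0.089 without WT-l-BM 3. The leukaemic spleen median ran from -0.70 without WT-l-SP 1 to 0.15 without WT-l-SP 3, and that of non-leukaemic spleen was -0.031 without KO-nl-SP 6 and 1.10 without KO-nl-SP 5. In non-leukaemic marrow the groups did not overlap for 8 members higher in KO and 1 lower, against 7.99% and 9.66% of all genes. On the slides that held both genotypes the median was 0.40 (3 arrays each) and 0.053 in leukaemic marrow, 0.17 and -1.19 in leukaemic spleen, 0.34 and 0.062 in non-leukaemic marrow, and 0.96 and -0.036 in non-leukaemic spleen.

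Further genes of cell division were counted in the same way. Of 65 tested further mitosis genes, 51 were called lower in spleen than in marrow without leukaemia over both genotypes (4.73% of all genes). Their median was -1.34, and 31 were called lower in WT mice alone (2.06% of all genes). For leukaemia in spleen 0 of the 65 were called, and 64 lay above 0, with a median of 0.64. At an unadjusted p under 0.05, 36 were higher (7.05% of all genes). Spag5 and Knstrn, which encode partner proteins of the mitotic spindle (astrin and kinastrin), had the smallest p at 1.72 ± 0.47 and 0.94 ± 0.26 (adjusted p = 0.12 for both).

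Of 20 tested regulators of mitotic genes, 9 were called lower in spleen than in marrow without leukaemia over both genotypes (4.73% of all genes). Foxm1, the factor that activates late cell-cycle genes, had group means of 7.45 ± 0.08 (SD, n = 3) in WT-nl-BM and 7.79 ± 0.26 (n = 3) in KO-nl-BM against 5.60 ± 0.47 (n = 3) in WT-nl-SP and 5.68 ± 1.02 (n = 3) in KO-nl-SP. It fell by 1.98 ± 0.33 (adjusted p = 0.00086). For leukaemia in spleen 0 regulators were called, and at an unadjusted p under 0.05 6 were higher (7.05% of all genes) and 1 lower (8.79%). Nfyb, a subunit of the CCAAT-binding factor NF-Y, differed by 0.79 ± 0.18 (adjusted p = 0.097). Mybl2, which encodes B-Myb, differed by 1.54 ± 0.48 (adjusted p = 0.13), with group means of 5.58 ± 0.67 (n = 3) in WT-nl-SP and 7.56 ± 1.29 (n = 3) in WT-l-SP.

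Markers of further cell types were counted for the same comparisons. Without leukaemia, over both genotypes, 0 of 11 B cell, 0 of 5 plasma cell, 0 of 10 T and NK cell and 0 of 5 monocyte markers were called between spleen and marrow. Of 8 megakaryocyte markers 1 was called higher in spleen, and of 8 dendritic cell markers 1 higher (3.03% of all genes). Of 5 progenitor markers 1 was called lower (Cd34, -0.59 ± 0.18, adjusted p = 0.038), where 4.73% of all genes were. For leukaemia in spleen 0 markers of these lists were called, with medians between 0.002 (plasma cell) and 0.93 (T and NK cell).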

How the data were processed

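Biotin-labelled cRNA from FACS-sorted F4/80+ cells was hybridised to 30 Illumina bead arrays, 1 colour. The authors deposited a table of non-normalised probe intensities with a detection p-value per probe, per the file headers, and a value table of processed log2 values, for which the submitters' processing notes name Partek without saying how they were normalised. Each array's processed values correlated at 0.990 to 0.997 with its log2 intensities, with column medians of 6.41. The intensities were background-corrected and quantile-normalised here with neqc of limma 3.58.1 (R 4.3.3, offset 16). The probe filter asked for a detection p under 0.05 on 3 or more arrays (23515 probes passed), and the brightest kept probe stood for a gene (11937 genes). A single model with 8 group means gave all contrasts, with Benjamini-Hochberg adjustment over all genes and a threshold of 0.05. The number of arrays limits the precision. Of the probes, 34885 had 1 gene symbol, 18 several and 10378 none. Slides were taken from the array labels as a block. The model was also run on simulated data with independent noise for each gene and array. That run cannot show how the model handles arrays on which many members shift at once.

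The members and gene lists were chosen with earlier results of these data known. Named members are those always of interest (Top2a, Cdk1, Aurkb, Birc5), the largest and smallest for leukaemia in spleen in each subgroup, all called in a planned contrast, the 3 smallest p-values in each kind of contrast, members with conflicting probes and members not tested; further names were chosen after their values were seen. Alternatives covered the authors' values, background correction, scaling, probe filter and choice, slide and replicate blocks, array weights, only the groups compared, and leaving out arrays. Replicate numbers have no stated meaning and were not used as pairs.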

Additional observations from a re-analysis of the deposited data

Results flagged for a closer look

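In groups of 4 to 6 arrays, 108 sets of values were searched for a single array far from the rest (Dixon's test at 95%), and 5 were found, where chance alone gives about 1 in 20. In WT-l-BM, array 3 lay apart for Aurkb at 7.96 (next 8.97), for Anln at 8.30 (next 9.58) and for the mean of the tested members at -0.40 (next 0.44). Also in WT-l-BM, array 4 was high for Pttg1 at 5.11 (next 4.65). In KO-l-BM, array 2 was high for Cks2 at 4.42 (next 4.29), both near the floor.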

How the results depend on the processing

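Over all comparisons, 215 of 221 medians under alternatives other than leaving out an array stayed within the spread between arrays (0.64, pooled SD), and 4 had another sign. With the authors' log2 values more members were called, and more of all genes, whose share stands in brackets here and below. Leukaemia in spleen gave 32 higher (11%) and 1 lower (13.8%). Within WT spleen it gave 29 higher (6.86%) and within KO spleen 3 (1.82%). The leukaemia difference in spleen minus that in marrow gave 14 higher (1.85%). KO tissue gave 32 lower without leukaemia (3.83%) and 17 with it (3.12%). With the slide as a fixed block 15 were higher for leukaemia in spleen (1.71%) and 3 in WT spleen (0.922%). For KO tissue that setting gave 21 lower without leukaemia (1.11%) and 0 with it. Array weights gave 2 higher for leukaemia in marrow (8.5%), 1 in WT marrow (4.1%) and 1 for Mif loss in non-leukaemic marrow (6.06%). For KO tissue they gave 30 lower without leukaemia (2.93%) and 17 with it (3.79%). For KO leukaemic tissue, 75th percentile scaling, no filter and only the groups compared each gave 0. Without background correction the median was 0.95 for leukaemia in WT spleen and -1.66, -1.47 and -1.54 for non-leukaemic tissue in WT, KO and both; over all kept probes it was -1.80 in WT. Leaving out KO-l-SP 2 and WT-nl-SP 1 together gave 1 lower in WT (0.126%) and 1 in KO (0.134%) for non-leukaemic tissue. For KO leukaemic tissue it gave 17 lower (4.48%). Leaving out the 3 spleen arrays closest to marrow gave 31 lower without leukaemia (1.99%) and 27 with it (4.56%) for KO tissue. Dropping arrays for their likeness to marrow by itself widens a tissue difference. Without these 3 arrays the median of the leukaemia difference in spleen, knockout minus wild type, was -0.022. The causes were not tested.

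Leaving out 1 array at a time gave 0 to 22 calls for leukaemia in spleen, 0 to 18 in WT spleen, 0 to 27 for WT and 0 to 28 for KO non-leukaemic tissue, and 0 to 16 for KO leukaemic tissue. In WT spleen there were 18 higher without WT-l-SP 1 (1.56% of all genes) and 5 without WT-nl-SP 3 (0.469%). Medians ran from 0.12 to 1.40 for leukaemia in KO spleen, from -2.77 to -1.47 for KO non-leukaemic tissue and from -1.47 to -0.15 for the genotype difference. For leukaemia in spleen the median was 0.88 without WT-l-SP 3 and 1.45 without KO-nl-SP 6. In WT spleen it was 1.20 without WT-l-SP 3 and 2.13 without WT-l-SP 1. The leukaemia difference in spleen minus that in marrow had a median of 1.09 without KO-nl-SP 5 and 1.66 without KO-nl-SP 6.

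The replicate numbers showed no pairing of arrays over all groups pooled. Of 73 same-numbered pairs from different groups 22 had deviations correlated over 0.1 (median -0.01), against 98 of 316 other-numbered pairs (median 0.005). Of 30 arrays, 5 correlated best with their own number. The pairs mix genotypes and leukaemia states, so the check cannot exclude pairing of spleen and marrow within a genotype and state. With the replicate number as a block, 26 members were called lower for WT non-leukaemic tissue (1.35% of all genes) and 34 over both genotypes (2.72%). For KO leukaemic tissue 0 were called. With no filter, 48 members entered and 33 were called lower for non-leukaemic tissue over both genotypes (2.4% of all genes). Dim probes limit Ccna2, Cks2, Ttk, Ube2c and Smc2.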
